A study of Raphidocelis subcapitata with 493 samples.

Results

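The PFHxS concentration series comprised 21 of the 493 libraries of a survey in which the freshwater green alga Raphidocelis subcapitata was exposed for 24 h to one of 22 PFAS. The series held 3 libraries at each of 7 nominal concentrations (0.1, 0.3, 1, 3, 10, 32 and 100 µM PFHxS), and its reference was the 3 DMSO libraries of the same exposure. The libraries were taken by compound and concentration in the labels, and no measured value entered their choice. FC8DoD was tested in that exposure over the same concentrations and shared the 3 DMSO libraries. All wells, controls included, held 0.33% solvent and algae taken from a culture in exponential growth. RNA came from pooled homogenates, so each library averaged over many cells. The labels number the libraries of a group 1 to 3 without saying what the number marks, and the p-values rest on differences among them that may be technical. Counts are shares of a library, so less RNA per cell and fewer cells cannot be told apart.

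PFHxS is perfluorohexane sulfonate, a surfactant with a fully fluorinated carbon chain and a sulfonate head group. The perfluorinated chain resists degradation, and compounds of this class persist in surface water. R. subcapitata is a unicellular alga that grows by photosynthesis and is a standard organism of freshwater toxicity tests. The survey set each concentration against solvent to find where transcription begins to depart from the control. The deposited tables list genes by locus identifiers and do not pair them with names or products, so the groups of genes below are described by their behaviour, and 4 genes are given by identifier.

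Values are counts of 3′ sequence tags per gene. The PFHxS libraries held 812592 to 2246302 counts (median 1188845) and the DMSO libraries 1388078 to 1677313. Totals were highest at 0.1 µM (1399796 to 2246302) and were 870759 to 1129825 at 100 µM, so sequencing depth moved with concentration. Of 13429 genes, 9422 had enough counts for a test and 4007 did not. Replicates differed beyond counting noise in all 24 pairs of the same group, with a chi-square of 2.21 to 8.33 per degree of freedom, and no library was counted as a copy of another. On the first principal component, which carried 16.4% of the variance, the 21 PFHxS libraries lay at -13.6 to 30.3 and the 3 DMSO libraries at -37.6 to -22.7, with no overlap. Replicate 3 also lay above replicate 1 on this component in every group. Replicates 1, 2 and 3 were at -8.6, 14 and 30.3 with 10 µM, the widest spread, and at -37.6, -27.6 and -22.7 in DMSO. On the second (10.8% of the variance), replicate 1 at 0.3 µM and replicate 1 at 3 µM stood apart, at 36.1 and 34.3.

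At every concentration, PFHxS libraries differed from DMSO in a set of genes of which most were higher with PFHxS. At 0.1 µM, 84 genes were higher and 3 lower (0.923% of the genes tested; edgeR quasi-likelihood test, Benjamini-Hochberg adjusted p under 0.05, here and for all genes called below). The test called 239 higher and 53 lower at 0.3 µM (3.1%), then 182 higher and 15 lower at 1 µM (2.09%). It called 299 higher and 129 lower at 3 µM (4.54%). The count for 10 µM was 372 genes higher and 164 lower (5.69%), the highest with all libraries but not without replicate 3. For 32 µM 173 were higher and 85 lower (2.74%), and for 100 µM 250 were higher and 165 lower (4.4%). The counts thus did not follow the order of the concentrations, although the share of falls among the genes called was lowest at 0.1 µM.

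**Figure D1:**
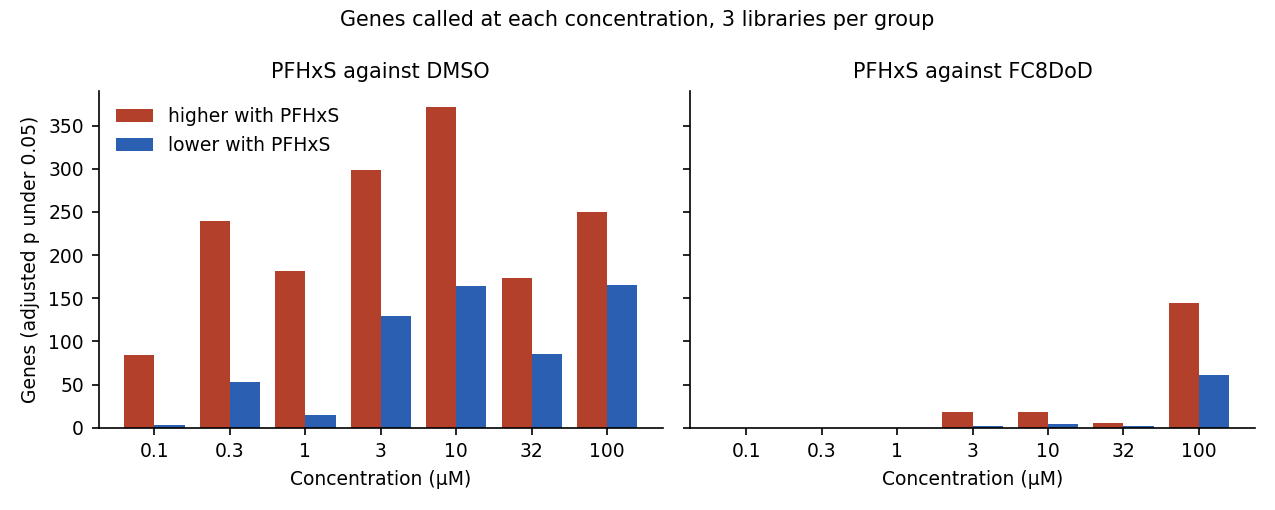
Number of genes called at each concentration (x axis, µM), higher (red) or lower (blue), for PFHxS against DMSO and for PFHxS against FC8DoD. Against DMSO the counts are highest at 10 µM with all libraries, though not without replicate 3, and against FC8DoD no gene is called up to 1 µM and 206 are called at 100 µM.

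The typical 95% half-width of a single gene's change was 0.51 to 0.54 on the log2 scale. The 7 contrasts share the 3 DMSO libraries. These counts depended on which libraries were kept. Without replicate 2 of every group, 10 genes were called at 0.1 µM, 102 at 10 µM and 74 at 100 µM, while leaving out replicate 1 gave 888 at 10 µM and leaving out replicate 3 gave 56 at 0.1 µM and 212 at 10 µM, fewer than the 294 at 3 µM and the 279 at 100 µM in that setting. Without DMSO replicate 1 the counts were 41, 265 and 215 for the lowest concentration, 10 µM and the highest, and without DMSO replicate 2 they were 43, 317 and 234.

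When the 7 concentrations were averaged and set against DMSO, 461 genes rose (4.89% of those tested) and 303 fell (3.22%), together 8.11%. The rises were the larger changes, with a median of 0.83 on the log2 scale and 168 genes at 2-fold or more, while the falls had a median of -0.55 and 15 genes at 2-fold or more. Among the falls, 173 were under 1.5-fold. The rises had a median level of 64.9 CPM (counts scaled to a common library total) over the PFHxS libraries and 33.4 CPM in DMSO, and the falls 89.8 CPM with PFHxS and 129 CPM in DMSO. For 203 of the 461 rises (44%), all 21 PFHxS libraries lay above all 3 DMSO libraries, which held for 2.3% of all genes tested. For 94 of the 303 falls (31%), all 21 lay below, which held for 1.17% of all genes. The rises and falls were chosen by the same libraries, so these shares describe the lists and do not test them.

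The count of genes in this averaged contrast was 164 without replicate 2 and 406 without replicate 3. It was 250 without DMSO replicate 1, 364 without DMSO replicate 2 and 510 without DMSO replicate 3. The lists were called from these libraries, which largely fixes the sign of the values within each replicate number, so these are a description. The median difference of the 461 rises between the PFHxS mean and the DMSO library of the same number was 0.91, 0.7 and 0.71 for numbers 1, 2 and 3, and that of the 303 falls was -0.56, -0.49 and -0.54.

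The lists were followed along the series as a description. They were chosen on the mean of all 7 concentrations against 3 DMSO libraries that each concentration shares, and an offset of one sign at every concentration follows in part from that choice. From the lowest to the highest concentration, the median change of the 461 rises was 0.68, 0.87, 0.84, 0.91, 0.97, 0.78 and 0.81 on the log2 scale. That of the 303 falls was -0.4, -0.51, -0.45, -0.59, -0.63, -0.56 and -0.62 in the same order. All 461 rises had a mean above DMSO at each of the 7 concentrations, and 301 of the 303 falls had a mean below DMSO at each. Over all 9422 genes tested, 4007 had their 7 means on one side of DMSO.

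**Figure D2:**
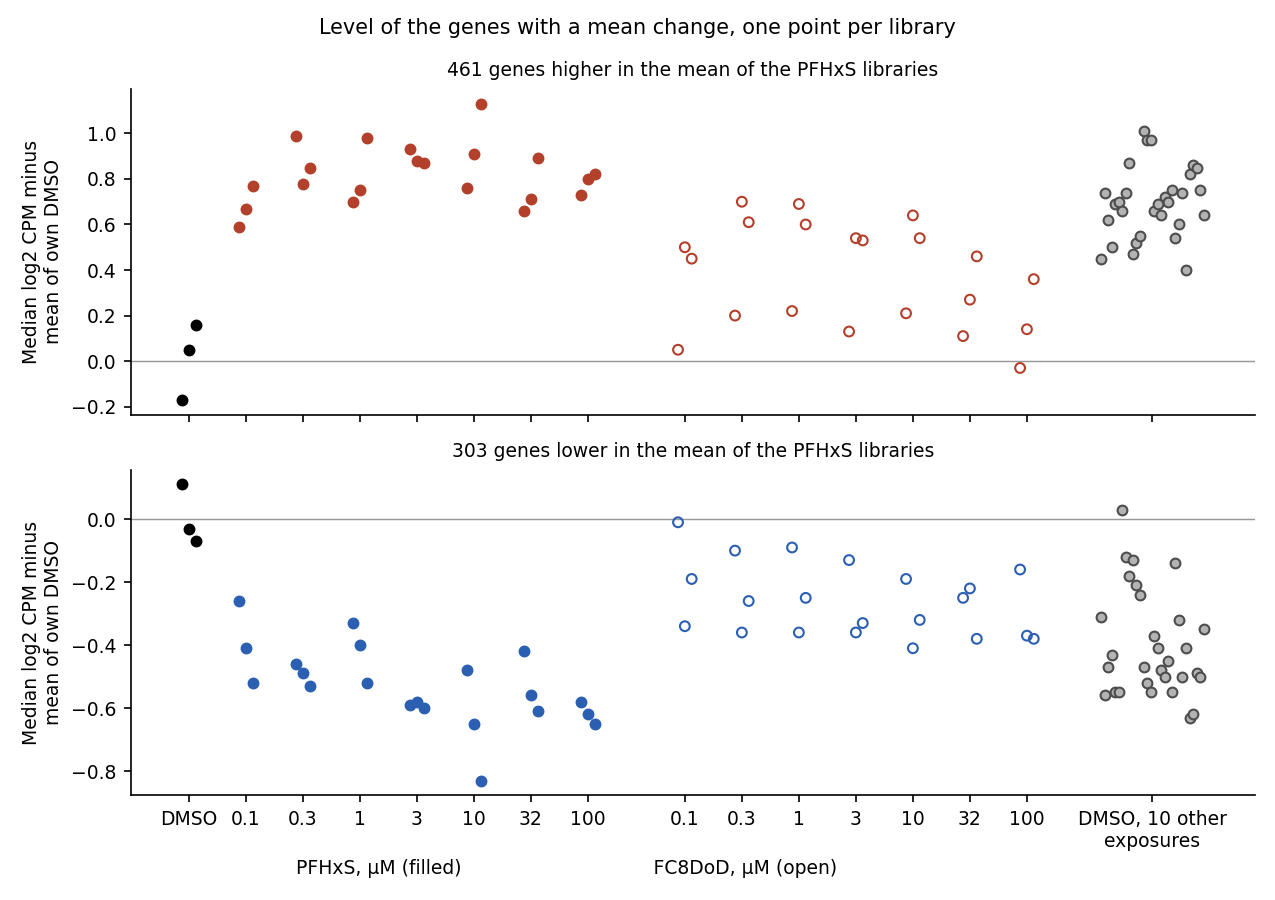
Median log2 level of the 461 rises (top) and 303 falls (bottom) in each library, relative to the mean of the 3 DMSO libraries of the exposure (y axis), for that DMSO and 7 PFHxS concentrations (filled), 7 FC8DoD concentrations (open) and 30 DMSO libraries of 10 other exposures (grey). PFHxS libraries lie at 0.59 to 1.13 for the rises at every concentration, the libraries of the other DMSO groups at 0.4 to 1.01.

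Rsub_11792 was the rise with the smallest adjusted p among genes on the same side of DMSO at all 7 concentrations. It had 67.7, 63.4 and 88 CPM at 0.1 µM, 107, 119 and 131 CPM at 10 µM and 57.6, 80.7 and 83.5 CPM at 100 µM, against 17.1, 19.8 and 17.7 CPM in the DMSO libraries. The 21 PFHxS libraries ranged over 57.6 to 165 CPM with a median of 96, so the lowest of them was above every DMSO library. Averaged over the series, Rsub_11792 reached 98.3 ± 24.5 CPM (SD, n = 21), against 18.2 ± 1.46 CPM in DMSO (SD, n = 3), a log2 change of 2.4 ± 0.2 (SE; edgeR adjusted p = 1.2e-10). Its group means were highest at 10 µM (119 ± 12.1 CPM) and 1 µM (117 ± 41.2 CPM) and were nearly equal at 0.1 µM (73 ± 13.1 CPM) and 100 µM (74 ± 14.2 CPM; SD, n = 3 each). Between the ends of the series the log2 difference was 0.02 with a 95% interval of -0.39 to 0.43.

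Rsub_01838 was the corresponding fall. It had 336, 317 and 305 CPM at 0.1 µM, 286, 265 and 257 CPM at 3 µM and 206, 228 and 208 CPM at 100 µM, against 489, 374 and 397 CPM in DMSO. All 21 PFHxS libraries, at 202 to 336 CPM, were below the lowest DMSO library. The log2 change of the averaged series was -0.69 ± 0.09 (SE; edgeR adjusted p = 1.8e-06). At 0.1 µM the change was -0.39 and was not called (edgeR adjusted p = 0.17), and at 100 µM it was -0.96 (edgeR adjusted p = 5.9e-06).

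Whether genes went on changing within the series was tested among the 21 PFHxS libraries alone, with a slope over the rank of the concentration and no control. This slope called 16 of 9328 genes, 7 rising and 9 falling (0.172%), while 874 genes had an unadjusted p under 0.05. The direct contrast of 100 µM with 0.1 µM called 2 genes (0.0212%), Rsub_09510 upward and Rsub_08920 downward. In this contrast 670 genes had an unadjusted p under 0.05, and it called 0 without any one replicate number. With the replicate number as a block, the slope called 62 genes and this contrast 31. No gene was called between neighbouring concentrations in any of 6 contrasts by edgeR, where 203 to 551 genes had an unadjusted p under 0.05. Of the steps from 0.1 µM to each higher concentration, that to 10 µM called 1 gene (0.0106%) and those to 0.3, 1, 3 and 32 µM none, with 271 to 770 genes at an unadjusted p under 0.05. At 10 µM no gene differed from the mean of 3 and 32 µM by edgeR (339 at an unadjusted p under 0.05) or DESeq2. The median unadjusted half-width of these contrasts was 0.47 to 0.55. Calls used p-values adjusted over all genes, so a gene of typical spread needed a larger change than that. The 2 genes called between 100 and 0.1 µM had changes of 0.74 and -0.77 with an SE of 0.15 (edgeR adjusted p = 0.047 for both). Changes of the half-width and somewhat above it were thus typically not detectable in a single gene with 3 libraries per group.

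Genes whose fitted change stayed under 1.5-fold, here called level, were counted from the unadjusted 95% interval of that change between 0.1 and 100 µM. The interval lay within 1.5-fold in either direction for 235 of the 461 rises (51%) and 154 of the 303 falls (50.8%), against 46.5% of all genes in the slope fit. The median fitted change of these level genes was 0.03 for the rises and -0.1 for the falls, beside a median difference to DMSO of 0.64 and -0.47. Level genes could still have a small slope, with an interval that left out 0. Of the level rises, 139 had a fitted change away from DMSO and 96 one towards it, and of the level falls 127 and 27. The fit was a straight line over the rank, so a gene that rose and returned within the series could also pass as level. Rsub_11792 passed, with a fitted change of 0.08 (95% interval -0.37 to 0.53). Its group means were 73 CPM at 0.1 µM, 119 CPM at 10 µM and 74 CPM at 100 µM. For 181 rises (39.3%) and 74 falls (24.4%) the interval was too wide to place the gene, and these were the less abundant ones, with medians of 31.9 and 24.3 CPM against 98.1 and 158 CPM for the level genes. A further 2 falls had too few counts for the slope fit. The number of level genes, 389 in all, was 345 without replicate 1, 43 without replicate 2 and 150 without replicate 3. The averaged contrast itself called 719, 164 and 406 genes in those settings.

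For the remaining genes the unadjusted interval pointed to a change within the series, although the adjusted slope test called 7 of these rises and falls. The interval left out 0 and reached past 1.5-fold for 45 rises (9.76%) and 73 falls (24.1%), against 7.83% of all genes in the slope fit. Of the 45 rises, 38 had a fitted change away from DMSO and 7 one towards it; 4.13% of all genes in the slope fit were of this kind with an upward change. Of the 73 falls, 72 had a fitted change away from DMSO and 1 one towards it, and 3.7% of all genes were of this kind with a downward change. The median fitted change was 0.51 for these rises and -0.44 for these falls. The slope uses no control library, and its sign was upward in 300 of the 461 rises (65.1%), against 51.3% of all genes, and downward in 258 of 301 falls (85.7%), against 48.7% of all genes. The median fitted change over the range was -0.2 on the log2 scale for all falls with a slope and 0.08 for all rises. Library totals were lower at higher concentrations. After all libraries were thinned to the lowest total the slope called 5 genes. The fitted changes of the 3 slope genes given by identifier were then -0.64 for Rsub_01838, 0.7 for Rsub_09510 and -0.79 for Rsub_08920, all still called. Before thinning they were -0.61, 0.65 and -0.78. These 3 genes are abundant and were chosen by their slope, so thinning could move them little. The shares of slope signs were not recounted after thinning, and whether depth shaped them was not tested.

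**Figure D3:**
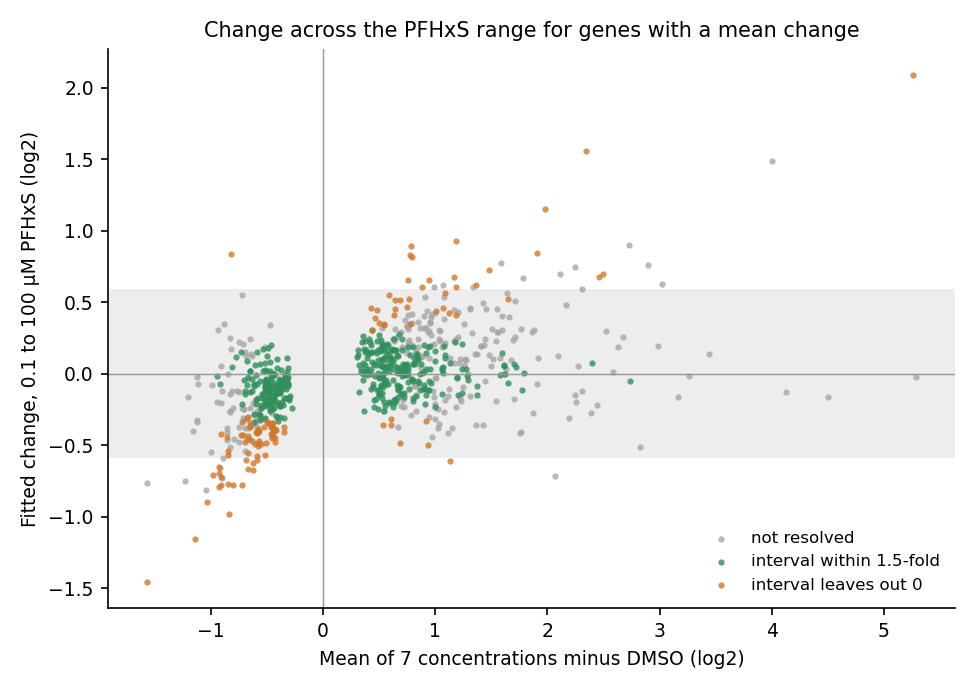
Fitted log2 change from 0.1 to 100 µM PFHxS (y axis, treated libraries only) against the log2 difference between the mean of the series and DMSO (x axis), one point per rise or fall. Green points have an interval within 1.5-fold (shaded), orange points an interval that leaves out 0 and reaches past 1.5-fold, and grey points are not resolved. Most falls lie below 0 on the y axis.

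The 16 genes called by the slope included the clearest cases of growth with concentration. The 7 rising genes changed by 0.65 to 2.22 on the log2 scale between the ends of the series and the 9 falling genes by -1.28 to -0.47. Of the 7 rising genes, 3 had a DMSO mean under 10 CPM. Those held the largest changes (2.22, 2.17 and 1.91), at 5.4, 2.3 and 4.1 CPM with 0.1 µM, and the next largest was 0.93. For 13 of the 16 the DMSO mean lay beyond the mean at 0.1 µM, on the side away from 100 µM. The gap was small in some of them, such as falling genes with 563 against 542 CPM and 45.6 against 40.8 CPM in DMSO and at 0.1 µM. This order of means was not tested and not counted over all genes. Of the 16, 7 were also called in the averaged contrast. The number called was 5 without replicate 1, 3 without replicate 2 and 5 without replicate 3, 9 without the 2 libraries that stood apart on the second component, and 37 by DESeq2 (10 rising, 27 falling).

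Rsub_09510 was the rising gene with the smallest p. It had 363, 409 and 480 CPM at 0.1 µM, and 453, 383 and 463 CPM at 1 µM. The libraries with 10 µM had 466, 459 and 625 CPM and those with 100 µM had 645, 752 and 698 CPM, against 265, 302 and 311 CPM in DMSO. Its means stayed between 417 and 462 CPM up to 3 µM then reached 516, 556 and 698 CPM with 10, 32 and 100 µM. At 100 µM all 3 libraries were above all other PFHxS libraries. The fitted change over the range was 0.65 ± 0.12 (SE; edgeR adjusted p = 0.0064). It was 0.54 without replicate 2 and was then not called (edgeR adjusted p = 0.31).

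Rsub_08920 was the falling gene with the smallest p and one of high level. It had 2150, 2220 and 1720 CPM at 0.1 µM, and 2210, 2250 and 1680 CPM at 1 µM. The libraries with 3 µM had 1460, 1730 and 1310 CPM and those with 100 µM had 1220, 1430 and 939 CPM, against 2900, 2780 and 2390 CPM in DMSO. Its means were 1970 to 2050 CPM from 0.1 to 1 µM and 1190 to 1500 CPM from 3 to 100 µM. The fitted change over the range was -0.78 ± 0.13 (SE; edgeR adjusted p = 0.002). The call was lost without replicate 1 (edgeR adjusted p = 0.17) and without replicate 2 (0.051). The slope also called Rsub_01838, with a change of -0.61 over the range (edgeR adjusted p = 0.0024), lost without replicate 2 (0.1) or replicate 3 (0.059).

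**Figure D4:**
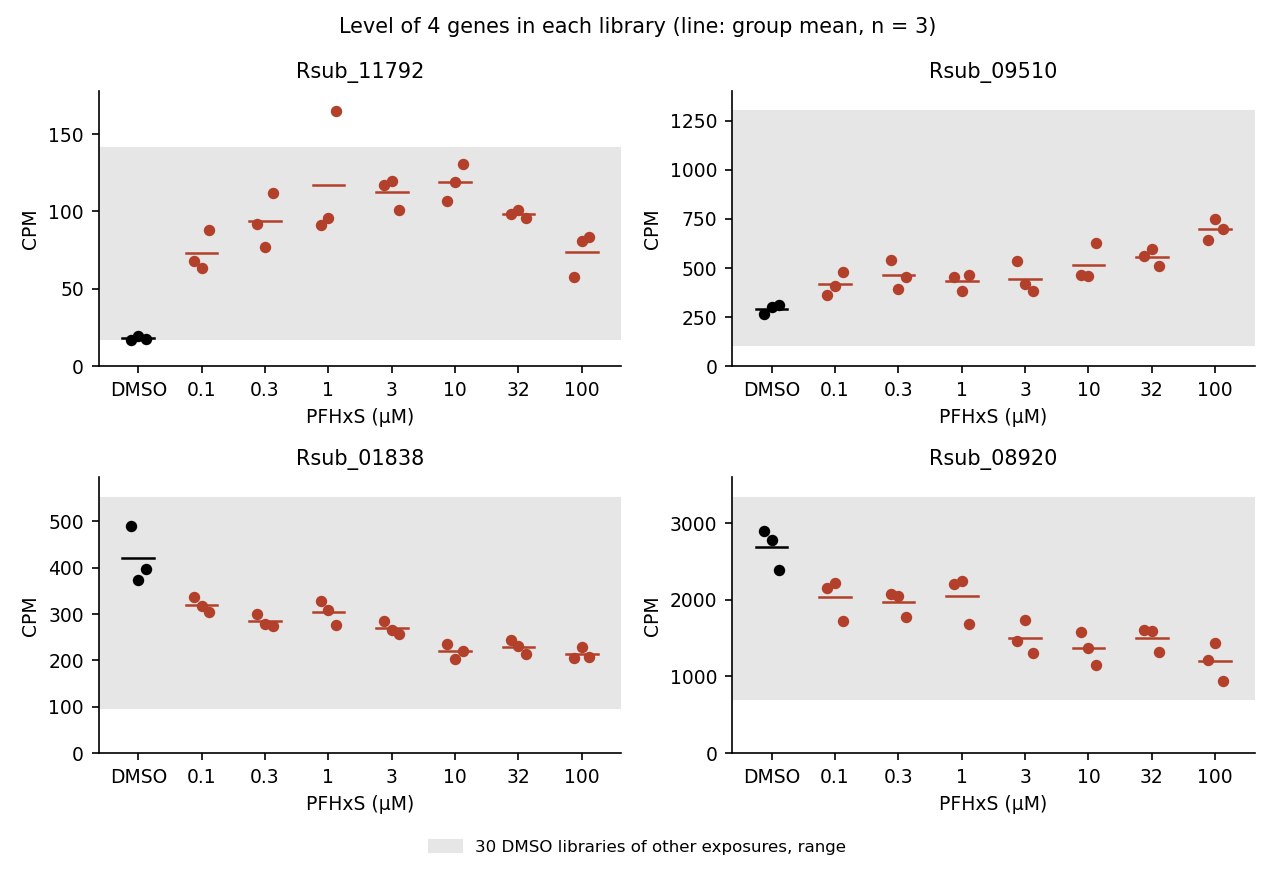
Level (CPM, y axis) of 4 genes in each library by PFHxS concentration, with DMSO at the low end, the group mean as a line (n = 3) and the range of 30 DMSO libraries of other exposures as a grey band. Rsub_11792 is at 57.6 to 165 CPM at all concentrations and 17.1 to 19.8 CPM in DMSO, while Rsub_09510 has its highest and Rsub_08920 its lowest group mean at 100 µM.

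The levels in DMSO libraries of the other exposures of the survey were set beside the series, since each exposure had 3 DMSO libraries of its own. Relative to the DMSO of its own exposure, the median level of the 461 rises was 0.59 to 1.13 in the 21 PFHxS libraries (median 0.8) and -0.17 to 0.16 in those 3 DMSO libraries. In the 30 DMSO libraries of the other 10 exposures it was 0.4 to 1.01 (median 0.695), so these solvent-only libraries overlapped the PFHxS libraries and did not overlap the DMSO of the PFHxS exposure. The 303 falls were at -0.83 to -0.26 in the PFHxS libraries (median -0.53), -0.07 to 0.11 in their own DMSO and -0.63 to 0.03 in the other DMSO libraries (median -0.46). The lists were chosen with the 3 DMSO libraries of the exposure, which by itself places these libraries at an extreme, and the difference between lists and exposures carries no test.

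Gene by gene, the PFHxS mean lay within the range of the 10 other DMSO group means for 414 of the 461 rises (89.8%) and 283 of the 303 falls (93.4%), against 93.9% of all genes. The DMSO mean of the exposure lay below that range for 226 of the rises (49%), against 6.45% of all genes, and above it for 71 of the falls (23.4%), against 6.08%. Rsub_11792 had 57.6 to 165 CPM in PFHxS libraries, 17.1 to 19.8 CPM in their own DMSO and 17.6 to 141 CPM (median 47) in the other DMSO libraries, so that 1 DMSO library of the exposure lay below that span and 1 PFHxS library above it. The other 3 genes also varied widely between DMSO libraries of other exposures, Rsub_01838 over 96.4 to 551 CPM, Rsub_09510 over 109 to 1300 CPM and Rsub_08920 over 703 to 3330 CPM, and in all 3 both the PFHxS libraries and their own DMSO libraries lay inside that span. When each exposure's DMSO was compared with the mean of the other 10, that of the PFHxS exposure differed in 1669 genes (17.2%), the lowest count but one of 11 exposures (1252 to 3475). Of the 760 rises and falls in that fit, 422 were called there, and 138 to 368 were called for the DMSO of the other exposures. The lists were chosen with the DMSO of the PFHxS exposure. That choice by itself favours the 422 and the shares of its means outside the range, so these are a description. Exposure and treatment cannot be told apart across exposures.

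The direct comparison with FC8DoD uses libraries of the same exposure and no control. At 0.1, 0.3 and 1 µM edgeR called no gene between PFHxS and FC8DoD, where 683, 571 and 574 genes had an unadjusted p under 0.05 and the typical half-width was 0.53 to 0.56. With the replicate number as a block, 18, 9 and 4 genes were called at these concentrations. At 3 µM 20 genes differed (0.208%), at 10 µM 22 (0.229%), at 32 µM 8 (0.0834%) and at 100 µM 206 (2.15%), of which 145 were higher with PFHxS. Averaging over the 7 concentrations narrowed the typical half-width to 0.21 and called 1797 genes (18.7%), 954 higher with PFHxS and 843 lower. The fit took the 21 libraries of a compound as independent. Variation shared by a compound's libraries of one number would not average out, so this half-width may be too narrow and the count too high. The 1797 were small differences, with a median size of 0.37 and 115 genes at 2-fold or more. Of them, 1244 (69.2%) had the same sign at all 7 concentrations. The genes were chosen on the mean of the same 7 differences, which by itself favours one sign. That share was not counted over all genes, so it describes the list and does not test it. The average of 0.1 to 1 µM called 180 genes (1.88%) and that of 10 to 100 µM 905 (9.43%). In 1 of the 1797 genes all 21 libraries of one compound were separated from all 21 of the other, which was also not counted over all genes. The averaged contrast called 1388, 1178 and 1046 genes without replicates 1, 2 and 3, and the contrast at 100 µM 121, 37 and 75.

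The rises and falls of the PFHxS series were less far from DMSO with FC8DoD, a description of lists that the PFHxS libraries chose and of compounds that share the 3 DMSO libraries. The median level of the 461 rises was 0.59 to 1.13 in PFHxS libraries and -0.03 to 0.7 in FC8DoD libraries, and that of the 303 falls was -0.83 to -0.26 with PFHxS and -0.41 to -0.01 with FC8DoD. Within replicate numbers 1, 2 and 3 the difference between the compounds in the rises was 0.63, 0.31 and 0.4, and in the falls -0.32, -0.18 and -0.32. In the rises, the 7 libraries of replicate 1 lay at 0.59 to 0.99 with PFHxS and -0.03 to 0.22 with FC8DoD. Those of replicate 2 lay at 0.67 to 0.91 with PFHxS and 0.14 to 0.7 with FC8DoD, and those of replicate 3 at 0.77 to 1.13 and 0.36 to 0.61. Against DMSO, the averaged FC8DoD series called 4 genes (0.0433%), where 650 genes had an unadjusted p under 0.05. Rsub_11792 averaged 98.3 ± 24.5 CPM with PFHxS and 45 ± 21.5 CPM with FC8DoD (SD, n = 21 each), a log2 difference of 1.16 ± 0.15 (SE; edgeR adjusted p = 3.7e-07). The gene was chosen with the PFHxS libraries, which favours this difference. Its change with FC8DoD against the shared DMSO was 1.23 (95% interval 0.35 to 2.11) and was not called (edgeR adjusted p = 0.47).

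Slopes over concentration were compared between the compounds of the exposure in their treated libraries. The slope of PFHxS differed from that of FC8DoD in 4 genes (0.0419%; 699 at an unadjusted p under 0.05). On its own, FC8DoD had a slope in 364 genes (3.99%). Of the 16 genes with a PFHxS slope, 14 could be fitted with FC8DoD, 13 had the same sign and 9 of these were also called. Rsub_09510 showed both features, at 645 to 752 CPM with PFHxS and 674 to 676 CPM with FC8DoD at 100 µM, a log2 difference of 0.05 (95% interval -0.24 to 0.33). Averaged over the series it was higher with PFHxS, by 0.51 ± 0.05 (SE; edgeR adjusted p = 2.2e-09), the PFHxS libraries ranging over 363 to 752 CPM and the FC8DoD libraries over 237 to 676 CPM.

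PFOS and FHxSA, which differ from PFHxS by a named change in structure, were tested in 2 other exposures, each with its own DMSO. PFOS is the sulfonate with a longer perfluorinated chain, and FHxSA is the sulfonamide with a chain of the same length. The 3 pairs of compounds formed by PFHxS with FC8DoD, PFOS and FHxSA were compared at matched concentrations and time, with p-values adjusted over all genes within each contrast and not over the pairs. On their own, PFOS changed 524 genes (5.64%) and FHxSA 937 (9.88%) in the averaged contrast with own DMSO, against 764 with PFHxS. The averaged change differed between PFHxS and PFOS in 495 genes (5.12%), with 258 more positive for PFHxS and 237 more negative. In the 258 the median change was 0.81 with PFHxS and -0.22 with PFOS, and in the 237 it was -0.34 and 0.38. Between PFHxS and FHxSA the averaged change differed in 800 genes (8.14%). Of these, 471 were more positive for PFHxS, with a median change of 0.53 with PFHxS and -0.29 with FHxSA. The other 329 were more negative, at -0.46 and 0.3. The lists for PFOS and FHxSA were chosen on the difference between the changes. That choice by itself sets the medians apart, so the medians describe the lists and do not test a change in opposite directions.

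These counts rest on each exposure's 3 DMSO libraries. Without replicate 2 they were 23 for PFOS and 140 for FHxSA, and without replicate 3 they were 983 and 452. Without replicate 1 the PFOS count was 239. Over all genes tested, the median unadjusted 95% half-width of the difference was 0.57 for PFOS and 0.54 for FHxSA. Differences of that size and somewhat above it in a single gene were typically not detectable after adjustment. The log2 change of Rsub_11792 against own DMSO was 2.4 with PFHxS, -0.17 with PFOS, where it was not called (edgeR adjusted p = 0.77), and 0.62 with FHxSA (edgeR adjusted p = 0.0061). The difference was 2.54 ± 0.34 from PFOS (SE; edgeR adjusted p = 3e-06) and 1.79 ± 0.26 from FHxSA (edgeR adjusted p = 1.2e-06). Rsub_11792 was chosen by its PFHxS change against own DMSO, which by itself favours a large difference. Its level at 100 µM was 74 ± 14.2 CPM with PFHxS, 51.8 ± 16.5 CPM with PFOS and 46.7 ± 6.87 CPM with FHxSA, while the DMSO means of the 3 exposures were 18.2, 57.8 and 39.6 CPM.

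Slopes, which use no control, differed from PFHxS in 16 genes for PFOS (0.166%), with the more positive slope with PFHxS in 2 and the more negative in 14. They differed in 339 genes for FHxSA (3.46%), more positive with PFHxS in 171 and more negative in 168. Without replicate 2 the counts were 1 and 75, and without replicate 3 they were 1 and 88. On their own, PFOS had a slope in 395 genes (4.3%) and FHxSA in 1411 (14.9%), against 16 with PFHxS. Of the 16 PFHxS slope genes, 15 could be fitted with PFOS, 10 had the same sign and 7 of these were called, while 1 gene was called in the opposite direction, with a change of 0.32 with PFOS. All 6 rising genes that could be fitted with PFOS had a positive change there, and 4 of the 9 falling genes had a negative one. With FHxSA 14 of 16 had the same sign and 4 of these were called, while 1 was called in the opposite direction, with a change of -0.85 with FHxSA.

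**Figure D5:**
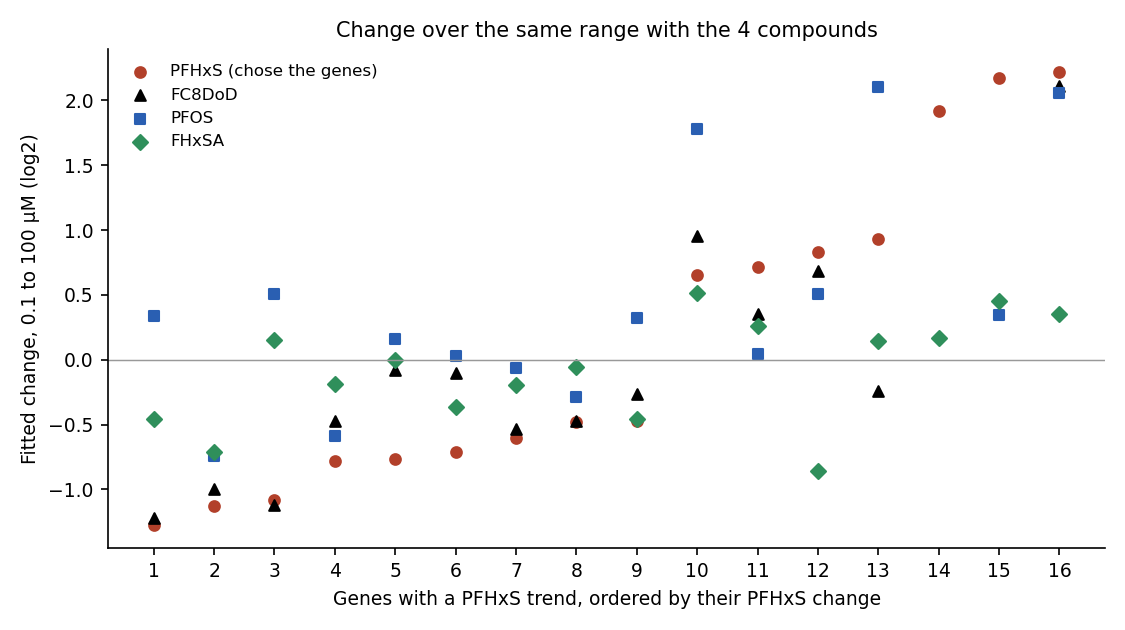
Fitted log2 change from 0.1 to 100 µM (y axis) of the 16 genes with a PFHxS slope, ordered by their PFHxS change, with PFHxS (circles), FC8DoD (triangles), PFOS (squares) and FHxSA (diamonds). PFHxS values chose the genes; 13 of 14 fitted FC8DoD values, 10 of 15 PFOS values and 14 of 16 FHxSA values have the same sign.

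Rsub_09510 rose over the range with each of the 4 compounds. Its fitted change over the range was 0.65 with PFHxS, 0.96 with FC8DoD (edgeR adjusted p = 0.0044), 1.78 with PFOS (0.00083) and 0.51 with FHxSA (1.4e-07). At 100 µM it reached 698 ± 53.9 CPM with PFHxS, 675 ± 1.28 CPM with FC8DoD, 1140 ± 97.3 CPM with PFOS and 995 ± 12.5 CPM with FHxSA (SD, n = 3 each). Its slope with PFHxS was not called as different from that with PFOS (-1.12, 95% interval -1.76 to -0.49; edgeR adjusted p = 0.15) or FHxSA (0.12, -0.16 to 0.4). Rsub_08920 fell by 0.78 over the range with PFHxS, 0.47 with FC8DoD and 0.58 with PFOS, and its change of -0.18 with FHxSA was not called (edgeR adjusted p = 0.14). The difference in slope between PFHxS and FHxSA was called for this gene (-0.61 ± 0.17, SE; edgeR adjusted p = 0.026). Rsub_08920 was chosen by its PFHxS slope, which by itself favours such a difference.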

How the data were processed

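The deposited tables hold raw whole-number counts of 3′ tags per gene (QuantSeq 3′ libraries with molecular identifiers, per the labels). Per the submitters' processing notes, fastp 0.23.2, STAR 2.7.10a, SAMtools 1.15.1 and Subread featureCounts 2.0.6 were used; for the build, the annotation and any collapsing of identifiers, the sources used here give nothing. Counts of genes that share sequence with a near-identical copy are uncertain.

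Counts were tested with edgeR 4.0.16 (R 4.3.3): filterByExpr by group, TMM scaling, robust quasi-likelihood fits, a mean per group, Benjamini-Hochberg adjustment over all genes tested, threshold 0.05. The slope used the rank of the concentration, and its change over 6 rank steps was set against a bound of 1.5-fold. CPM are counts scaled to a common total with TMM factors over all libraries used. The 3 DMSO columns that both tables of the exposure hold were identical. Alternatives were other scaling, no filter, DESeq2 1.42.0, thinning, a replicate block and leaving out libraries. Scripts were checked on simulated data. The genes given by identifier were the first rise and fall, by adjusted p, of the averaged contrast and of the slope, with a mean of at least 10 counts. The members, lists and tests were chosen with earlier results of these data known. Labels give 3 µM where the protocol plans another value near it.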

Additional observations from a re-analysis of the deposited data

Results flagged for a closer look

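Contrasts in which PFHxS libraries differed from those of another compound by a test of the difference itself were singled out; for PFOS and FHxSA they cross exposures, and compound and exposure cannot be told apart. Averaged over the 7 concentrations, PFHxS differed from FC8DoD in 1797 genes, both compounds having been tested in the same exposure. That fit took libraries of one number as independent, so the count may be too high. The averaged change against own DMSO differed from that of PFOS in 495 genes and from that of FHxSA in 800 genes. The slope over concentration differed from that of FC8DoD in 4 genes, from that of PFOS in 16 genes and from that of FHxSA in 339 genes.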

How the results depend on the processing

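Counts against DMSO are limited by 3 libraries per group and the shared DMSO. Leaving out 1 library or number at a time gave 10 to 94 genes at 0.1 µM, 93 to 252 at 0.3 µM, 35 to 190 at 1 µM, 73 to 348 at 3 µM, 102 to 888 at 10 µM, 40 to 252 at 32 µM, 74 to 388 at 100 µM and 164 to 719 (or 748 without the 10 µM libraries) in the averaged contrast. Level genes were 43 to 345, slope genes 3 to 5, and 0 for 100 against 0.1 µM. PFHxS against FC8DoD gave 0 to 3, 0 to 2, 0 to 1, 1 to 21, 0 to 77, 1 to 40 and 37 to 121 genes from 0.1 to 100 µM, 1046 to 1388 averaged and 3 to 6 for the slope. Averaged changes differed in 23 to 983 genes from PFOS and 140 to 631 from FHxSA, and slopes in 1 to 14 and 75 to 242.

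The replicate block raised the counts to 220, 562, 391, 718, 977, 556 and 843 from 0.1 to 100 µM, 1199 averaged, 686 level genes, 62 slope genes and 31 for 100 against 0.1 µM. With it, PFHxS against FC8DoD gave 18, 9, 4, 134, 155, 169 and 394 genes and 21 for the slope, the averaged change 845 genes for PFOS, and the slope 56 for PFOS and 553 for FHxSA. The numbers were not taken as pairing in the main fits, since the labels do not say what they mark. Deviations correlated over 0.1 in 44 of 84 same-number pairs (-0.07 to 0.34), and all 24 libraries correlated best with their own number. Libraries of one number thus shared some variation, which the main fits leave in the spread.

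DESeq2 gave 37 slope genes and 12 for 100 against 0.1 µM. Without scaling factors the slope differed from PFOS in 9 genes, and the averaged change from PFOS was more positive in 318 genes and more negative in 187. Without a filter the slope differed from FC8DoD in 15 genes. With FC8DoD libraries in the fit, 13 genes were called at 0.1 µM, and with a bound of 2-fold 664 genes were level. Chosen after seeing the data, thinning to the lowest total gave 127, 275 and 152 genes at 1, 3 and 32 µM, 5 slope genes and 245 level genes. Without the 2 libraries apart on the second component, 0.3 µM had 189 genes, the slope 9 and 100 against 0.1 µM 1. Averages over 0.1 to 1 µM and 10 to 100 µM gave 180 and 905 genes against FC8DoD. For the 4 genes given by identifier, 98 values kept direction and call, 5 lost the call, and the uncalled range change of Rsub_11792 was -0.11 to 0.27 without a replicate number and -0.11 without replicate 2. Causes were not tested.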
